A study of Mus musculus with 12 samples.

Results

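The 6 arrays of set 1, out of 12 in the series, compared hair follicle cells of 2 genotypes at Tgfbr2, the gene of the type II TGF-beta receptor. They were chosen by the set number and the genotype in the labels. No measured value entered this rule, though earlier results of these data were known. The labels name the genotypes TßRII-Het (Het) and TßRII-cKO (cKO). Each genotype gave 1 array of hair germ cells, 1 of bulge cells and 1 of total skin keratinocytes. All came from untreated female mice 72 to 74 days old, of mixed C57BL/6 and CD1 strain, and were sorted from back skin by the Rosa26-YFP reporter, P-cadherin and CD34. The hair germ and bulge cells of set 1 are labelled quiescent in both genotypes. In set 2, used below for comparison only, the labels call Het hair germ and bulge cells activated and cKO ones aberrantly quiescent. The sources used here do not give the Cre driver, the number of mice per array, or whether the fractions of a genotype came from the same mice. A conditional knockout carries the deletion in the cells where Cre acted, and other cells of the skin keep the gene.

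TGF-beta ligands bind the type II receptor, which recruits and phosphorylates the type I receptor, which in turn phosphorylates Smad2 and Smad3. BMP signals through Smad1 and Smad5 and keeps hair follicle stem cells at rest, with the Id genes as its targets. The hair germ lies next to the dermal papilla and enters the cycle first when a resting follicle starts to grow, and the bulge above it holds the slower stem cells. TGF-beta signals from the dermal papilla are known to lower BMP signalling in the hair germ at that step, with Tmeff1 as a target. The set 1 comparison asks how the genotypes differ when both are labelled quiescent.

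Values below are log2 of the deposited signal, and a difference is cKO minus Het of the same fraction. Values under 20.7 signal units were set to that floor (4.37 in log2), so a difference from an array at the floor is a lower bound. There was no replicate of a genotype in a fraction. The 3 fraction pairs were therefore the observations, and no p-value rests on the spread between mice. Each rests on the spread between these pairs, which may be technical, moderated by limma towards that of genes of similar signal. Col3a1, for example, had an SD of 0.05 between pairs and a limma SE of 0.16. For Csn1s1 the same values were 3.31 and 0.81. The median signal of the 6 arrays lay between 79.8 and 109 signal units. Precision is limited by there being only 6 arrays. The sort of hair germ from bulge showed in both genotypes. Cd34, the bulge surface marker, read 8.69 in Het and 8.40 in cKO hair germ against 14.60 and 14.42 in bulge. Cdh3, the gene of P-cadherin, read 9.42 and 9.74 in hair germ against 8.60 and 8.31 in bulge. In total keratinocytes Cdh3 read 9.33 in Het and 9.33 in cKO, near its hair germ values. The basal keratins Krt5 and Krt14 lay at 14.77 or above on all 6 arrays. Tgfbr2, the targeted gene, read 11.48, 12.39 and 11.96 in Het hair germ, bulge and total keratinocytes, and 12.02, 12.14 and 12.09 in the same cKO fractions. It did not fall (difference 0.14, SE 0.17, limma adjusted p 1), and without the hair germ pair the difference was -0.06. The sources used here do not say whether its probes lie in the deleted part, so its level checks no label.

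The cKO total keratinocyte array stood apart from the rest by its milk protein transcripts. Csn2, the gene of beta-casein, read 12.22 on it, against 7.31 in cKO hair germ and at most 4.81 on the other 4 arrays. Wap, whey acidic protein, read 12.37 on it and at most 6.22 elsewhere. Of 13 measured milk and mammary genes, the mean level was 9.19 on this array and between 4.84 and 5.81 on the others. The summed signal of the list ran from 320.2 to 671 units in Het and from 543 to 27022 in cKO. Glycam1 and Csn3 were at the floor on all other arrays of set 1. The part of these transcripts in other differences of this pair was not tested. Csn1s1 was at least 2-fold higher in cKO in all 3 pairs, by 1.82, 2.30 and 7.78, and did not pass (limma adjusted p 0.0958). Csn1s2a and Csn1s2b read 6.70 and 6.56 in cKO hair germ. The calls and the counts of the lists described most are given with and without the total keratinocyte pair.

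Across 12122 genes tested, 11 passed the threshold (0.0907%): 6 rose in cKO (0.0495%) and 5 fell (0.0412%). Those that rose were Gt(ROSA)26Sor, Zfp458, Col1a1, Epgn, Tppp3 and Col3a1, by 1.02 to 2.33 in log2. Those that fell were H2-Ea, Zfp874a, S100a8, Wif1 and Adh7, by -0.98 to -4.58. At an unadjusted p under 0.05, 740 genes differed (6.1%), 404 of them higher in cKO (3.33%) and 336 lower (2.77%). These shares are the background of the list counts below. In every pair 1684 genes were higher (13.9%) and 1368 lower (11.3%), whatever their p. A difference of at least 2-fold in every pair was reached by 9 genes upward (0.0742%) and 10 downward (0.0825%). The calls depended on the model. H2-Ea, Gt(ROSA)26Sor and Zfp874a passed in 9 of 13, 9 of 13 and 9 of 12 settings tried, and the other 8 in 5 to 7 of 13. With no filter on dim genes or no fraction block none passed, with 899 and 131 genes at an unadjusted p under 0.05. Leaving out the hair germ pair gave 131 calls and leaving out the bulge pair 40, all 11 genes among them both times. These fits reuse arrays that gave the 11 calls, so the return of the 11 is no separate support. Leaving out the total keratinocyte pair gave 15, with 9 of the 11, and lost Tppp3 and Col3a1 (adjusted p 0.079 and 0.14). Of 11962 genes tested without it, 709 reached an unadjusted p under 0.05, 355 higher in cKO and 354 lower.

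**Figure D1:**
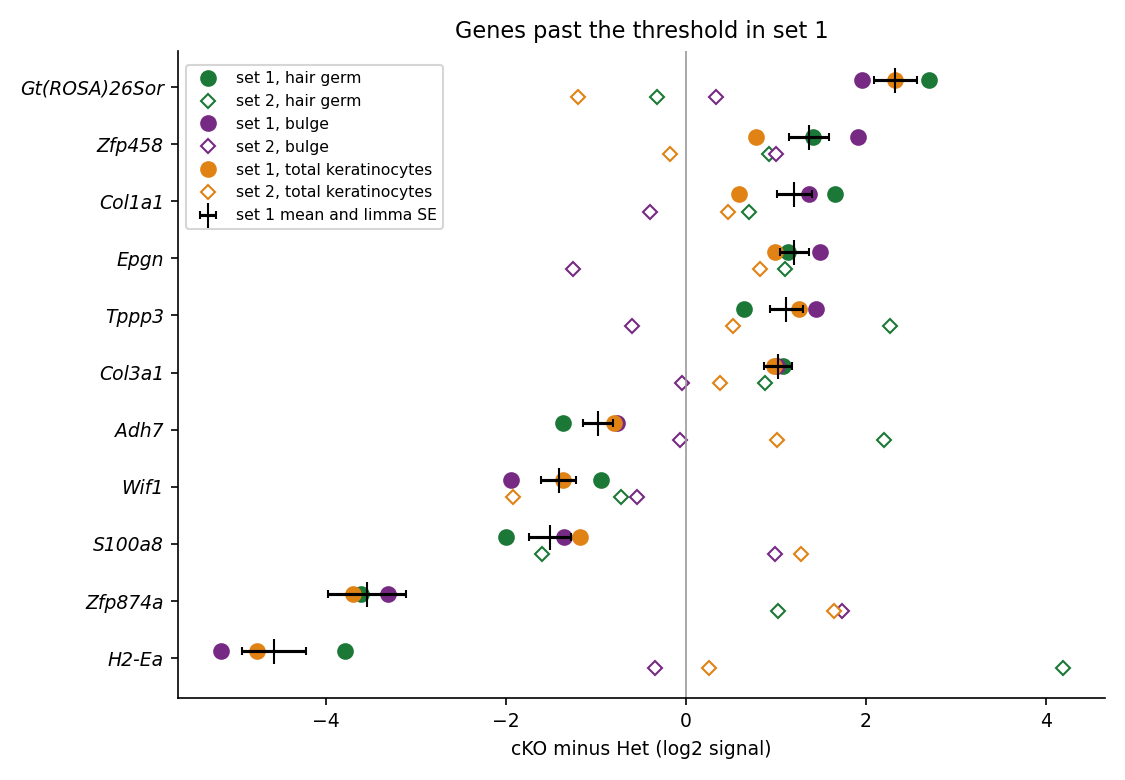
Difference cKO minus Het in log2 signal for the 11 genes past the threshold in set 1. Filled circles are the 3 fraction pairs of set 1, the bar is their mean with the limma SE, and open diamonds are the same pairs of set 2. All 3 circles of each gene lie on one side of 0, while the diamonds of 9 genes lie on both sides.

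H2-Ea, which encodes the alpha chain of the class II antigen-presenting molecule I-E, had the largest change. It read 9.07, 9.90 and 9.14 in Het hair germ, bulge and total keratinocytes, against 5.28, 4.73 and 4.37 in cKO. The genotypes did not overlap, and the last cKO array was at the floor. The difference was -4.58 (SE 0.36, limma adjusted p 5.93e-05, lower in 3 of 3 pairs), or 23.9-fold as fitted. It was -2.97 with the floor at the pooled median and -3.36 with the mean of all probe sets. C57BL/6 mice carry a form of this gene that is not transcribed, and the sources used here do not give the strain share of single mice. In set 2 the gene did not follow the genotype, with 8.56 in cKO hair germ and 5.07 or less on the other 5 arrays. The neighbouring class II genes did not fall with it. H2-Aa differed by 0.66, H2-Ab1 by 0.59 and H2-Eb1 by 0.56, none past the threshold.

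Gt(ROSA)26Sor, the non-coding transcript of the Rosa26 locus into which the YFP reporter of the sort is placed, rose most. It read 6.88, 6.93 and 6.92 in Het hair germ, bulge and total keratinocytes, and 9.58, 8.89 and 9.24 in cKO. The 3 Het values lay within a narrow range and all cKO values above them. The difference was 2.33 (SE 0.24, limma adjusted p 0.000999), or 5.02-fold as fitted. The set 2 arrays lay between 5.32 and 6.94 in both genotypes. How many copies of the reporter each mouse carried is not stated in these sources. None of the 10 nearest tested genes on its chromosome passed the threshold.

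A zinc finger gene and its near neighbour moved in opposite directions. Zfp874a read 8.49, 7.89 and 8.08 in Het and 4.87, 4.58 and 4.37 in cKO, with the last array at the floor. Its difference was -3.54 (SE 0.43, limma adjusted p 0.00488), or 11.7-fold as fitted. With the floor at the pooled median it was -1.75 and did not pass (adjusted p 0.0984). Zfp458, 4 tested genes away on chromosome 13, read 8.70, 7.41 and 8.81 in Het and 10.12, 9.31 and 9.59 in cKO. It rose by 1.37 (SE 0.22, adjusted p 0.0318), and the genotypes did not overlap. Rsl1, a zinc finger repressor of sex-dependent liver genes 2 tested genes from Zfp458, read 8.05, 7.33 and 7.30 in Het and 6.51, 4.95 and 5.29 in cKO. Its difference of -1.97 did not pass (adjusted p 0.0958). Between them Zfp595 differed by 0.12, Zfp953 by -0.29 and Zfp429 by -0.49, none past the threshold. Zinc finger genes of such clusters are alike in sequence, and how far the probes tell them apart was not tested. For Zfp458 the mean of all probe sets gave 0.74 and did not pass (adjusted p 0.72).

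**Figure D2:**
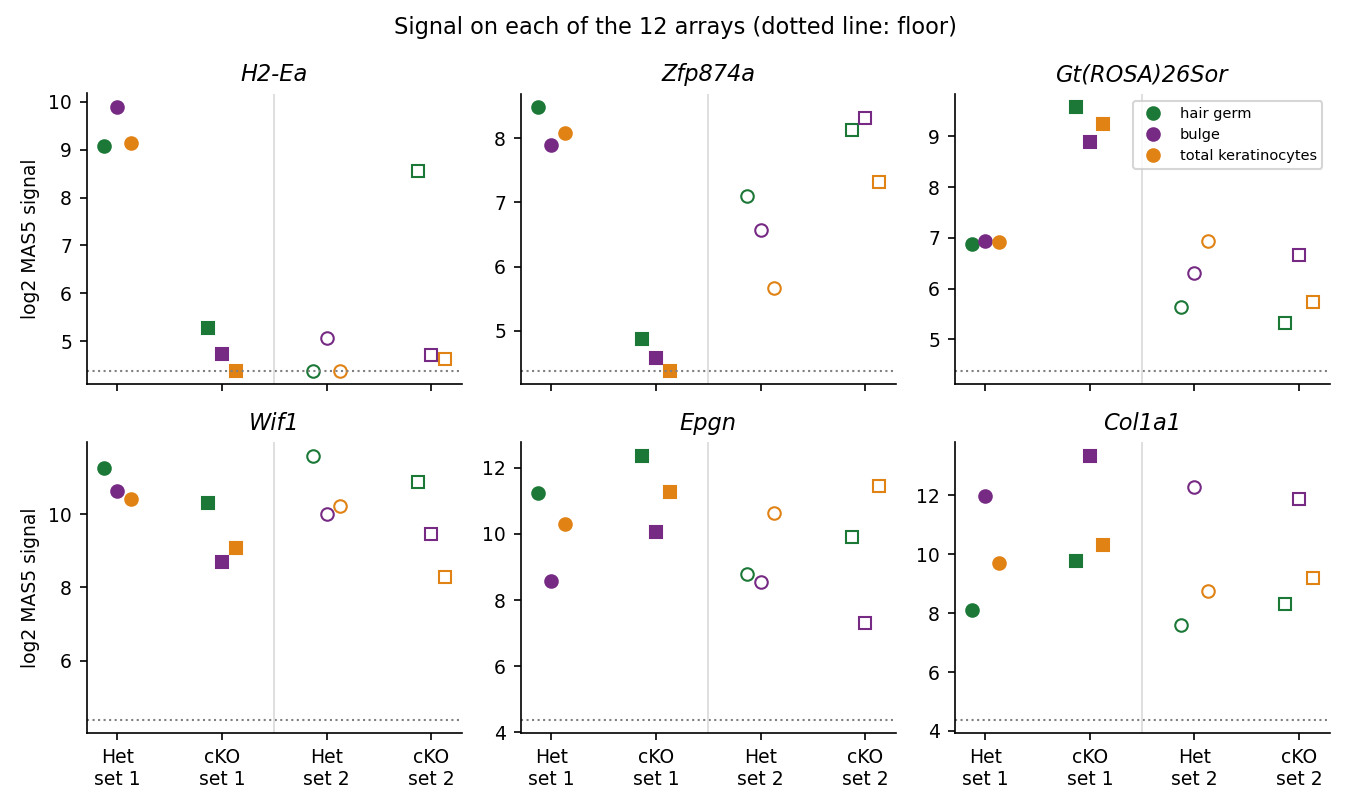
Log2 signal of 6 genes on each of the 12 arrays by genotype and set, coloured by fraction, with filled symbols for set 1 and open ones for set 2. The dotted line is the floor at 4.37, and in set 1 H2-Ea, Zfp874a and Gt(ROSA)26Sor show no overlap of the genotypes.

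The promoters of the following genes are shown because Wif1, Epgn and Col3a1 passed the threshold, Col1a2 differed beside Col3a1, and Zfp874a and Zfp458 lie close together and moved apart. The sequences are RefSeq's, on GRCm38.p6, and hold the 300 bases around the gene's start, most of them before it, read 5′ to 3′ on the gene's strand. Capitals mark CAGAC (the core of the CAGA box that Smad3 and Smad4 bind), CCAAT or TATAAA, each on either strand. Of 32851 promoters of 300 bases, 49.6% hold CAGAC, 37.4% CCAAT and 13.6% TATAAA.
Wif1, chr10:121033754-121034053, plus strand: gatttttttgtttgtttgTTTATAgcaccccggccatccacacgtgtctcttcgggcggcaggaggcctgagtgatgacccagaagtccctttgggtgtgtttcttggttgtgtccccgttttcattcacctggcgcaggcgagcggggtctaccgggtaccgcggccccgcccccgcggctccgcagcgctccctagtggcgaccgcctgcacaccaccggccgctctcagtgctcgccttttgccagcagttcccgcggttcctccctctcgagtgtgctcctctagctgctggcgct
Epgn, chr5:91027267-91027566, plus strand: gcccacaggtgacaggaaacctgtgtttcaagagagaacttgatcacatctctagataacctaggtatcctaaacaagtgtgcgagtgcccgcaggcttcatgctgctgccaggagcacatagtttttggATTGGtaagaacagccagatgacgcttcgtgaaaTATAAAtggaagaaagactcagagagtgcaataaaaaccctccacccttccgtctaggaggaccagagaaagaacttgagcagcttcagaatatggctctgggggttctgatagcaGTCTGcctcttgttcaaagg
Col3a1, chr1:45311288-45311587, plus strand: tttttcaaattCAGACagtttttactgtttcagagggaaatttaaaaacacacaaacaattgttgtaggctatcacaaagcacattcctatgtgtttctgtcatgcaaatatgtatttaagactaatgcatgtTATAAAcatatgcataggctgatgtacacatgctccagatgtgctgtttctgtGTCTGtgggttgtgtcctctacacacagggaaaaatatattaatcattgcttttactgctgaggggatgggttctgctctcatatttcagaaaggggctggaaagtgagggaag
Col1a2, chr6:4505368-4505667, plus strand: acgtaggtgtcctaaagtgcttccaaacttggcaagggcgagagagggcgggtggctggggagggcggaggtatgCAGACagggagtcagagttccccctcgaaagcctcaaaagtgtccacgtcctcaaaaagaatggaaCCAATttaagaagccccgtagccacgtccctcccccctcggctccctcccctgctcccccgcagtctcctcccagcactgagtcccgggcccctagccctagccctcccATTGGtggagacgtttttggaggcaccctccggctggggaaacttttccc
Zfp874a, chr13:67451575-67451874, minus strand: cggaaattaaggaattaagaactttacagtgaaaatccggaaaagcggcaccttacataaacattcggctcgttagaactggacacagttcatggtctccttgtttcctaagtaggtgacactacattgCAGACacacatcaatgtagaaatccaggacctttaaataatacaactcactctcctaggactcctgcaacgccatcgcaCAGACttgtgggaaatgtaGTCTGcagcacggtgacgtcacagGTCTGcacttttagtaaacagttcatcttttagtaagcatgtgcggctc
Zfp458, chr13:67268945-67269244, minus strand: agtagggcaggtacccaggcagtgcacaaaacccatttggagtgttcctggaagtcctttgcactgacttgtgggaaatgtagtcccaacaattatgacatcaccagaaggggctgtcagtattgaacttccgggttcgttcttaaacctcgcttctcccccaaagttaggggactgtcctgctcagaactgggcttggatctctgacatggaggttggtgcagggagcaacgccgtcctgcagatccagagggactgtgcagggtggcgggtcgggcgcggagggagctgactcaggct
CAGAC matched 4 times in Zfp874a, 2 times in Col3a1, once in Epgn and once in Col1a2. Wif1 and Zfp458 had no match to it in this window. CCAAT matched 2 times in Col1a2 and once in Epgn, and TATAAA once each in Wif1, Epgn and Col3a1. These matches are descriptions of the letters and not of binding.

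Among secreted signals, Wif1 fell and Epgn rose. Wif1, an extracellular inhibitor of Wnt ligands made by resting follicle stem cells, read 11.27, 10.64 and 10.43 in Het hair germ, bulge and total keratinocytes, and 10.32, 8.70 and 9.07 in cKO. Every cKO value lay below every Het value. The difference was -1.42 (SE 0.19, limma adjusted p 0.00996), or 2.67-fold. Wif1 was also lower in all 3 pairs of set 2, by -0.72, -0.54 and -1.92, and the sets did not differ past the threshold (difference -0.35, adjusted p 0.927). Epgn, an epidermal growth factor receptor ligand, read 11.24, 8.59 and 10.29 in Het and 12.37, 10.07 and 11.27 in cKO. Each pair differed by 0.99 to 1.49, although the ranges of the genotypes overlapped because fractions differ. It rose by 1.20 (SE 0.16, adjusted p 0.00996). In set 2 Epgn was 1.10 and 0.82 higher in hair germ and total keratinocytes and -1.26 in bulge. Its chromosomal neighbours Ereg and Btc, genes of the same ligand family, differed by -0.19 and 0.46 without passing.

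S100a8 and Adh7 fell, and which cells of the samples made them was not tested. S100a8, one chain of the inflammatory protein calprotectin, read 9.21, 9.27 and 8.65 in Het and 7.21, 7.91 and 7.47 in cKO. The genotypes did not overlap, and the difference was -1.51 (SE 0.23, limma adjusted p 0.027). Adh7, an alcohol dehydrogenase that oxidises retinol, read 11.72, 11.36 and 11.77 in Het and 10.34, 10.59 and 10.97 in cKO. It fell by 0.98 (adjusted p 0.0464), the weakest call, and Adh1 and Adh5 beside it on the chromosome differed by 0.11 and -0.13. Both genes went the other way in part of set 2. S100a8 was 0.99 and 1.28 higher in cKO bulge and total keratinocytes, and Adh7 was 2.20 and 1.01 higher in cKO hair germ and total keratinocytes. Tppp3, a tubulin-binding protein gene, read 10.65, 8.97 and 10.13 in Het and 11.29, 10.42 and 11.39 in cKO, and rose by 1.12 (SE 0.18, adjusted p 0.0318).

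Col1a1 and Col3a1, fibrillar collagens of the connective tissue, rose, and both belong to the fibroblast list. Col3a1 read 11.57, 15.15 and 12.74 in Het hair germ, bulge and total keratinocytes, and 12.65, 16.16 and 13.72 in cKO. The 3 pairs differed by 0.98 to 1.08, giving 1.02 (SE 0.16, limma adjusted p 0.027). Col1a1 read 8.12, 11.98 and 9.71 in Het and 9.77, 13.35 and 10.30 in cKO, a rise of 1.21 (SE 0.20, adjusted p 0.0318). Both were highest in the bulge of either genotype. Of 12 fibroblast markers tested, 2 rose, 6 were higher at an unadjusted p under 0.05 and 7 were higher in every pair. Over all genes the shares were 0.0495%, 3.33% and 13.9%. None was lower, and the median difference was 0.51 against 0.00 over all genes. Without the total keratinocyte pair 1 rose (Col1a1), 4 were higher at an unadjusted p under 0.05, and the median was 0.48. Lum and Col1a2 differed by 0.85 and 0.79 (adjusted p 0.0789 and 0.0958), and Dcn by 0.56. The mean level of the 12 markers was 9.86, 12.67 and 10.27 in Het and 10.25, 13.40 and 10.82 in cKO. Their summed signal ran from 26949 to 188715 units in Het and from 37664 to 328525 in cKO, and none was at the floor on any of the 6 arrays. In bulk samples more cells of a type and more RNA per cell cannot be told apart, and the part of fibroblast RNA in the collagen calls was not tested. In set 2 the median of the list was 0.34, and the collagens of its bulge pair differed by -0.40 (Col1a1) and -0.05 (Col3a1).

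Of 13 Langerhans cell and macrophage markers tested, 1 fell (H2-Ea) and 6 were higher at an unadjusted p under 0.05, against 3.33% of all genes. The median of the markers was 0.43. Without the total keratinocyte pair 2 were higher and 2 lower at that level, and the median was 0.26. Csf1r, the receptor of macrophage growth factor, differed by 0.57, and Cd207, the langerin gene that marks Langerhans cells, by 0.43. With H2-Ea counted, the mean level of the 14 measured markers went against their median in hair germ (9.06 in Het, 8.98 in cKO) and bulge (9.74 and 9.60) but not in total keratinocytes (9.03 and 9.30). Their summed signal ran from 17864 to 30556 units in Het and from 20108 to 33160 in cKO. None was at the floor on all arrays of a genotype. Of the T cell list, 0 of 9 tested reached an unadjusted p under 0.05 in limma, and none was called. The same held for 10 melanocyte, 5 endothelial, 6 muscle and 6 dermal papilla markers. The 2 erythroid markers with a probe set were too dim to test.

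**Figure D3:**
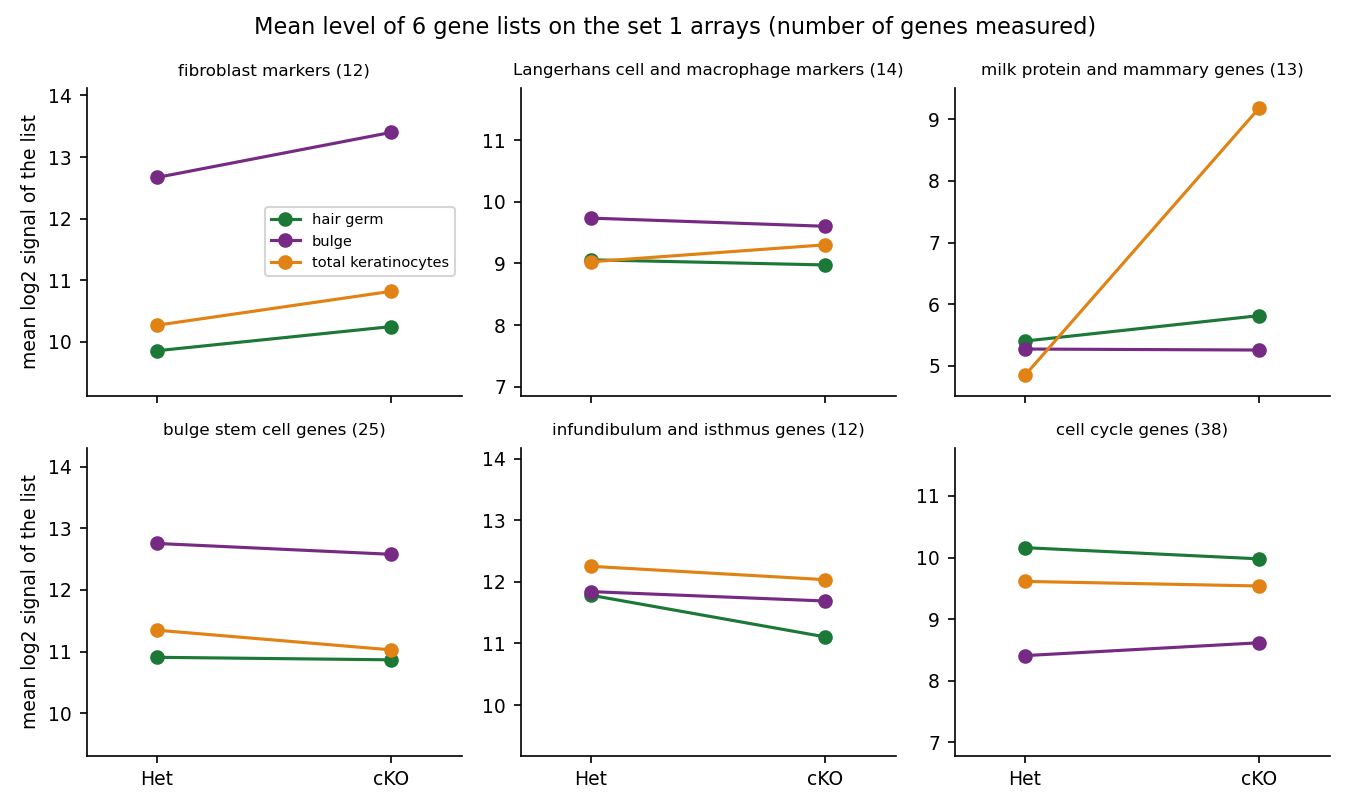
Mean log2 signal of 6 gene lists on the set 1 arrays, Het on the left and cKO on the right of each panel, with a line per fraction pair. Every panel spans 5 log2 units around its own centre. The milk list rises to 9.19 on the cKO total keratinocyte array alone, and the fibroblast list is higher in cKO in all 3 pairs.

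Of 25 bulge stem cell genes tested, Wif1 fell and no gene rose. Wif1 itself was higher in hair germ than in bulge, with 11.27 against 10.64 in Het and 10.32 against 8.70 in cKO. At an unadjusted p under 0.05, 9 were lower and 2 higher, against 2.77% and 3.33% of all genes, and the median was -0.18. Without the total keratinocyte pair 5 were lower and 2 higher, and the median was -0.13. In every pair 11 of the 25 were lower and 6 higher, against 11.3% and 13.9% of all genes. The transcription factors of the list named here were picked after their values were seen, and the others are not given. Foxc1, which keeps bulge cells at rest, differed by -0.54, Nfatc1 by -0.51, Sox9 by -0.46 and Tbx1 by -0.39. Fgf18, a growth factor that prolongs rest, read 5.50, 12.32 and 8.55 in Het and 4.37, 11.57 and 7.67 in cKO, a difference of -0.92 (limma adjusted p 0.181). Igfbp3, which binds insulin-like growth factor, was higher in every pair, by 0.72 (adjusted p 0.219). Krt15 and Cd34 differed by 0.29 and -0.31. By fraction the median of the list was -0.02 in hair germ, -0.18 in bulge and -0.36 in total keratinocytes.

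Of 11 infundibulum and isthmus genes, which mark the upper follicle, none passed. They ranged from -0.78 for Fst to -0.0038 for Plet1. At an unadjusted p under 0.05, where 2.77% of all genes were lower, 5 of these 11 were. Their median was -0.38, with -0.58, -0.36 and -0.30 in the 3 pairs, -0.56 without the bulge pair and -0.43 without the total keratinocyte pair. Without the latter pair 4 of these genes were lower at an unadjusted p under 0.05. Fst, a secreted activin inhibitor that other lists here also hold, did not pass (limma adjusted p 0.125). Gata6 differed by -0.68 and Aqp3, a water channel, by -0.63. Krt79, a keratin of the upper follicle, read 12.18, 12.08 and 13.67 in Het and 11.69, 11.72 and 13.38 in cKO. In set 2 the median of the same list was 0.26, but the pairs split. It was 0.87 in hair germ, -0.24 in bulge and -0.17 in total keratinocytes.

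Of 17 hair germ and early anagen genes none passed. At an unadjusted p under 0.05, 3 were lower and 1 higher, where 2.77% and 3.33% of all genes were. Without the total keratinocyte pair 1 was lower and 0 higher. Grp differed by -1.16 (limma adjusted p 0.272). Shh, the ligand that drives growth of the new follicle, read 9.84 in Het and 9.75 in cKO hair germ. It was higher in cKO in bulge (5.37 against 6.76) and in total keratinocytes (6.45 against 7.95). Its mean difference of 0.93 did not pass (adjusted p 0.495), and among its pathway genes Gli3 differed by -0.74 and Gli1 by -0.37. All 10 basal keratinocyte genes tested lay above 0 and none passed, with a median of 0.30 against 0.00 over all genes. At an unadjusted p under 0.05, 3 were higher, and 5 were higher in every pair. Over all genes these shares were 3.33% and 13.9%. Without the total keratinocyte pair 2 were higher at an unadjusted p under 0.05, and the median was 0.32. Sparc, which fibroblasts also make, differed by 0.76, Col7a1 by 0.44 and Itga3 by 0.41. Of 23 epidermal differentiation genes S100a8 fell. At an unadjusted p under 0.05, 7 were lower and 1 higher, against 2.77% and 3.33% of all genes. Without the total keratinocyte pair 7 were lower and 2 higher. Over all 3 pairs the median of the list was -0.01. That median was -0.18 with quantile normalization and -0.33 with the mean of all probe sets. Krt1, an early differentiation keratin, differed by 0.60, and Lce1c, a late cornified envelope gene, by -1.18.

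**Figure D4:**
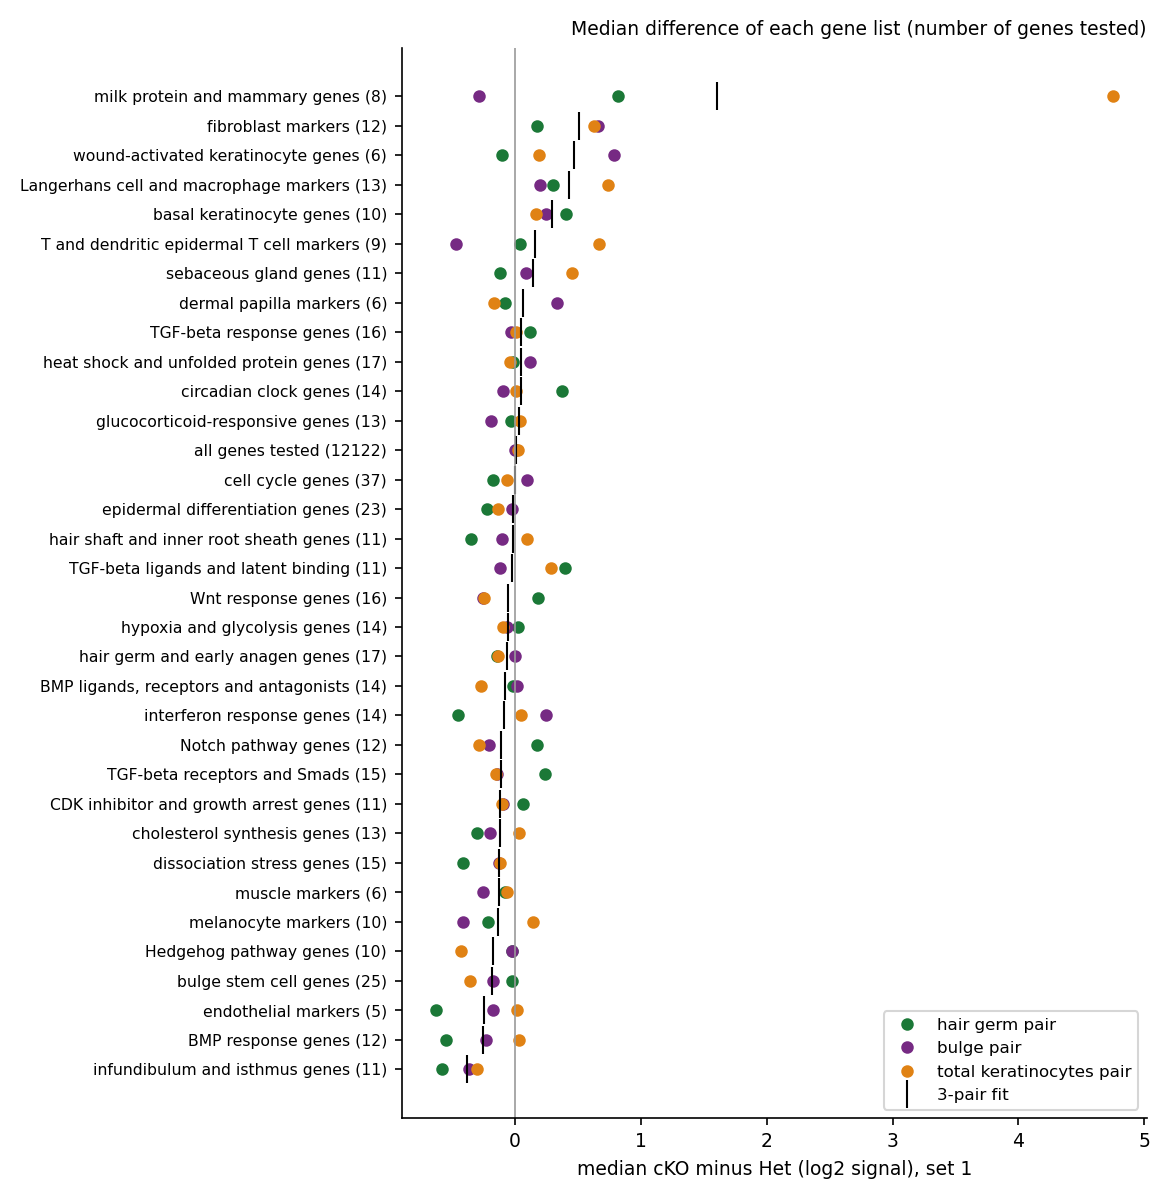
Median difference cKO minus Het in log2 signal of each list with at least 5 genes tested, per fraction pair (dots) and over the 3 pairs (bar), beside that of all genes tested. The infundibulum list has the lowest bar at -0.38, the fibroblast list stands at 0.51, and the milk list differs most between pairs.

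The TGF-beta pathway itself showed no call. Of 15 receptors and Smads tested, 2 were lower at an unadjusted p under 0.05 and none higher, against 2.77% and 3.33% of all genes. The median of the list was -0.11, and 0.048 without the total keratinocyte pair. The lower ones were Smad6, an inhibitory Smad, at -0.73 and Smurf2, a ubiquitin ligase of the receptors, at -0.38. The type I receptor Tgfbr1 differed by -0.15, and the signal carriers Smad2 and Smad3 by -0.13 and 0.18. Among 11 ligand and latent binding genes, Inhba, the activin A chain, differed by 1.02 and Tgfb1 by 0.55. The latent binding proteins split, with Ltbp1 and Ltbp2 both at -0.45 and Ltbp4 at 0.50. Of 16 response genes, 2 were higher and 3 lower at an unadjusted p under 0.05, against 3.33% and 2.77% of all genes. Their median was 0.05, which turned to -0.061 without the hair germ pair. Without the total keratinocyte pair 2 were higher and 1 lower, and the median was 0.10. Klf10, an early TGF-beta inducible transcription factor, read 10.20, 10.32 and 10.77 in Het and 11.09, 11.39 and 11.26 in cKO. It was higher in every pair, by 0.81, and did not pass (limma adjusted p 0.0958). Ccn2, a matrix-associated TGF-beta target, read 13.50, 15.81 and 13.97 in Het and 12.82, 15.61 and 12.89 in cKO, a difference of -0.65 (adjusted p 0.345). Tmeff1 read 7.44, 7.23 and 7.07 in Het and 7.27, 7.63 and 7.06 in cKO, a difference of 0.07 (SE 0.30) whose sign turned with quantile normalization (-0.0053) and with the mean of all probe sets (-0.19).

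Of 12 BMP response genes tested none passed. At an unadjusted p under 0.05, 4 were lower and 0 higher, against 2.77% and 3.33% of all genes. The median of the list was -0.26. Without the total keratinocyte pair 3 were lower and 0 higher, and the median was -0.30. By pair the median was -0.55 in hair germ, -0.23 in bulge and 0.03 in total keratinocytes. Id2 read 11.36, 14.14 and 11.68 in Het and 10.91, 13.99 and 11.23 in cKO, lower in every pair, with a difference of -0.35 (SE 0.15, limma adjusted p 0.761). Id1 differed by -0.75 in hair germ, -0.29 in bulge and 0.32 in total keratinocytes. Id3 followed the same order with -0.48, -0.26 and 0.19. Their means of -0.24 and -0.18 did not pass, and that of Id1 turned to 0.01 without the hair germ pair. Bambi, a decoy receptor, differed by -0.56. Of 14 BMP ligands, receptors and antagonists, the antagonists Fst and Sostdc1 differed by -0.78 and -0.62, and the ligands Bmp4 and Bmp6 by 0.28 and -0.39. Of 16 Wnt response genes only Wif1 passed. Dkk3 and Lgr5 were lower at an unadjusted p under 0.05 (-0.52 and -0.34), Notum and Tnfrsf19 higher (0.71 and 0.36), and Axin2, a direct target, differed by 0.09.

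Proliferation genes did not separate the genotypes in set 1. Of 37 cell cycle genes tested none passed, and the median was 0.00. At an unadjusted p under 0.05, 1 was higher and 3 lower, against 3.33% and 2.77% of all genes. Without the total keratinocyte pair 1 was higher and 1 lower, and the median was 0.02. Mki67, the gene of the Ki-67 antigen of dividing cells, read 12.18, 9.29 and 10.56 in Het and 11.73, 10.08 and 10.39 in cKO. Its difference was 0.06 (SE 0.21), and -0.31 without the bulge pair. The lower ones were the mitotic genes Ube2c (-0.63), Cdc20 (-0.53) and Ccnb2 (-0.52), each with its largest gap in the hair germ pair. E2f1, which drives entry into DNA synthesis, was the higher one (0.63). In set 2 the median of the list was -0.94. The difference between the sets had a median of 0.84, and 18 of the 37 genes reached an unadjusted p under 0.05 in its test, with none past the threshold.

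Each pair was also described alone, with no test since each group held 1 array. A gene was counted where the brighter array of the pair exceeded the pooled median of 84.7. In hair germ 370 of 12016 genes were at least 2-fold higher in cKO (3.08%) and 427 lower (3.55%). In bulge 898 of 12577 were higher (7.14%) and 369 lower (2.93%). The 2 bulge arrays also differed as a whole. The cKO array had a median signal of 108.7 units and 21.2% of probe sets at the floor. The Het array had 82.7 units and 23.9%. The part of this in the excess of higher genes was not tested. In total keratinocytes 227 of 11377 were higher (2%) and 160 lower (1.41%). The corresponding pairs of set 2 had 2994, 1831 and 826 genes changed at least 2-fold in either direction, against 797, 1267 and 387 here. The standard deviation of the differences over genes was 0.53, 0.58 and 0.46 in set 1 and 0.91, 0.73 and 0.56 in set 2. The 3 pair differences of set 1 correlated weakly across the 12122 genes, with Pearson's r of 0.04 between hair germ and bulge, 0.08 between hair germ and total keratinocytes and 0.09 between bulge and total keratinocytes. In set 2 the same values were 0.22, 0.29 and -0.15. Genes are not independent replicates, and each array enters 1 pair.

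**Figure D5:**
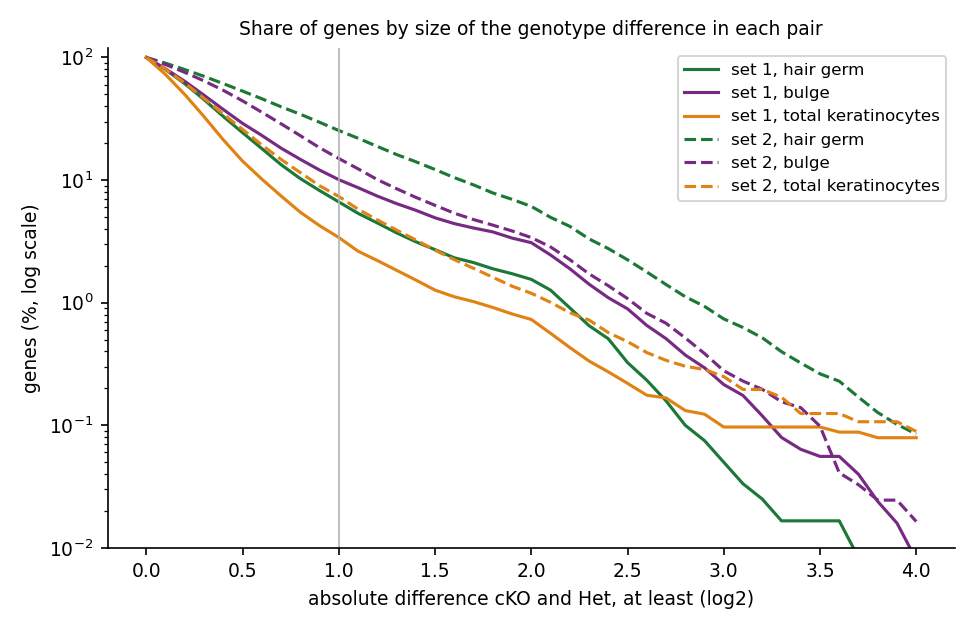
Share of genes, on a log scale, whose cKO and Het arrays differ by at least the log2 size on the x axis, for each pair of set 1 (solid) and set 2 (dashed). At 1 log2 unit, marked by the vertical line, the set 1 pairs stand at 6.63% (hair germ), 10.1% (bulge) and 3.40% (total keratinocytes), each below the set 2 pair of the same fraction.

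The extremes of the single pairs were mostly genes with 1 array at the floor. In hair germ the highest were Nyap1 (at least 2.99), Csn2, Nkx2-3, Gsdmd, Nacad and Ccdc180. Nkx2-3, a homeobox gene, was also 2.57 higher in cKO bulge and -0.22 in total keratinocytes. Below H2-Ea, Zfp874a and Olig1, the lowest in hair germ were Dlgap1, Gapdhs and Minar2, each between -3.03 and -3.17. In bulge the highest were Wfdc12 (3.68), Tmprss6, Dhx38, Kif9, 2610316D01Rik and Otp. Dhx38, a splicing helicase gene, was higher in all 3 pairs, by 2.40, 3.30 and 0.66, and did not pass (limma adjusted p 0.181). The lowest in bulge after H2-Ea were Epn3, Igha, Acacb, Jchain and B3gnt8. Igha and Jchain, which encode parts of secreted antibody, read 8.59 and 8.10 in Het bulge and 4.74 and 4.37 in cKO bulge. In total keratinocytes the 6 highest were Csn1s2a, Csn2, Csn1s1, Wap, Csn3 and Csn1s2b, all milk protein genes, by 6.67 to 8.06. The lowest there after H2-Ea, Zfp874a and Olig1 were Cpsf4l, Vmn1r44 and Ppp1r3f.

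Below the threshold, the rule for named genes added 5 genes by their p. Bcar3 and Rfx2 were higher by 1.10 and 1.22 (limma adjusted p 0.0789 each). With the mean of all probe sets these were 0.081 and 0.56, and of the 2 Bcar3 probe sets above the median 1 had this sign. Olig1, a transcription factor of glial precursors, read 7.61, 7.13 and 7.91 in Het and 4.37, 5.71 and 4.37 in cKO, with cKO hair germ and total keratinocytes at the floor. Its difference was -2.73 (adjusted p 0.093). Hddc3 differed by -1.20 (adjusted p 0.0746), and Rsl1 was given with its neighbours.

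The genotype difference of set 1 was tested against that of set 2 on all 12 arrays. Of 12738 genes tested, 1 passed (0.00785%), and 786 reached an unadjusted p under 0.05 (6.17%). The 1 gene was Zfp874a, lower in cKO by 3.31 to 3.71 in the pairs of set 1. In set 2 it was higher, with 7.10, 6.57 and 5.67 in Het and 8.13, 8.31 and 7.32 in cKO. The sets differed by -5.01 (SE 0.52, limma adjusted p 0.00547). This call was lost without the hair germ pair of set 1 (adjusted p 0.115) and without its total keratinocyte pair (0.0696), with differences of -4.98 and -4.93. H2-Ea and Gt(ROSA)26Sor differed between the sets by -5.95 and 2.72 without passing (adjusted p 0.153 and 0.275). For Col3a1, Epgn, Tppp3 and Wif1 the difference between sets was 0.62, 0.98, 0.38 and -0.35, with adjusted p from 0.808 to 0.945. It was larger for Adh7 (-2.03) and S100a8 (-1.73), and was 0.95 for Col1a1 and 0.79 for Zfp458. None of these passed either (limma adjusted p from 0.403 to 0.816).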

How the data were processed

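RNA of sorted cells was hybridized to 12 Affymetrix arrays, of which the 6 of set 1 were compared here. Per the labels' protocols, 2 µg of total RNA went into each biotinylated cRNA. The authors deposited linear intensity values computed with MAS5, a tool the submitters' processing notes name without a version. In the deposited intensity values, each array's mean, trimmed by 2% on either side, was checked and is 500. The sources used here name no genome build.

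Among 45101 probe sets were 64 controls, which were dropped, 34945 with 1 gene symbol, 932 with several and 9160 with none. The brightest probe set per gene was kept (18193 genes). Values were floored at the pooled 25th percentile (20.7) before log2. A gene was tested where at least 2 arrays of a fit exceeded 84.7, the pooled median.

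limma 3.58.1 on R 4.3.3 was used (lmFit, eBayes with trend, two-sided, Benjamini-Hochberg over all genes tested, threshold 0.05). Set 1 was fitted alone with fraction as a block, and the difference between sets on 12 arrays with each fraction of each set as a block level. The fits were tested on simulated data. The 37 gene lists held 520 distinct genes, some in several lists, and 485 were measured. The arrays, the lists, the tests and the rule for named genes were chosen with earlier results of these data known. That rule took Tgfbr2, Tmeff1, Cdh3, Cd34, Id1, Id2, Id3 and Mki67, up to 12 called genes per direction (filled to 8 by p from genes at least 2-fold and of the same sign in all pairs), the 6 highest and 6 lowest of each pair, and up to 4 members per list; list members beyond it were named after their values were seen. Chromosome order and promoters came from RefSeq's GRCm38.p6 tables.

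Alternatives were quantile normalization, other floors and filters, the mean of all probe sets, eBayes without trend, a 2-fold or 3-fold minimum, other blocks, a 12-array fit and leaving out each pair.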

Additional observations from a re-analysis of the deposited data

Results flagged for a closer look

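Zfp874a moved in opposite directions in the 2 sets, and the difference of its genotype differences passed the test: set 1 minus set 2 was -5.01 (SE 0.52, limma adjusted p 0.00547). It was lower in cKO in 3 of 3 pairs of set 1 and higher in 3 of 3 pairs of set 2.

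Olig1 was lower in cKO in all 3 pairs of set 1, by -3.24, -1.43 and -3.53. It was higher in all 3 pairs of set 2, by 1.52, 1.69 and 3.02, with a mean of 2.08. This opposition was picked out by the signs alone, and several of these values rest on arrays at the floor. In the fit over both sets its difference of -4.81 did not pass (limma adjusted p 0.146).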

How the results depend on the processing

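Of 11 calls in set 1, quantile normalization left 5, a floor at the pooled median 2, the mean of all probe sets 3 (of 4 called), eBayes without trend and the fit of all 12 arrays 1 each (Zfp874a), and no filter or no fraction block 0. Leaving out a pair gave between 15 and 131 calls. The single call between sets became 0 with a floor at the pooled median, with no filter (922 at an unadjusted p under 0.05) and with a filter at the pooled 75th percentile (496), and lay between 0 and 14 when a pair was left out. Genes changed at least 2-fold in hair germ, bulge and total keratinocytes were 311, 498 and 145 with the floor at the pooled median, 122, 150 and 54 with the 75th percentile filter, 1988, 2767 and 1149 with no filter, and 287, 565 and 128 at 3-fold. Signs turned for Cdh3 (-0.044 with quantile normalization) and Tmeff1 (-0.0053 with quantile normalization, -0.19 with the mean of all probe sets). Over the fits without 1 pair, differences ranged from -0.15 to 0.15 for Cdh3, -0.52 to 0.014 for Id1, -0.31 to 0.31 for Mki67, -0.061 to 0.34 for Tgfbr2 and -0.091 to 0.20 for Tmeff1. None of these 5 genes passed in any setting. The cause was not tested. Over 24 named genes and 284 alternative values, 199 kept sign and side of the threshold, 68 fell short of it and 9 newly passed. Of 394 alternative values of 33 list medians, 14 moved by more than the spread between pairs. No paired analysis was possible by replicate number, because the labels number no replicates; the fraction block pairs the arrays by fraction.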

Other observations

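The stress, heat shock, clock, sebaceous, interferon and cholesterol lists gave no call in set 1. Over all genes 2.77% were lower and 3.33% higher at an unadjusted p under 0.05. Dissociation stress genes are switched on within minutes when cells are disturbed. Of 15 such genes 4 were lower and 0 higher at that level, with a median of -0.13. Ier3 differed by -0.82 and Egr1 by -0.50. The median of this list was -0.41 in hair germ and -0.12 in both other pairs. Of 17 heat shock and unfolded protein genes, 2 were lower and 2 higher at that level, and Hspa1a differed by -0.69. Of 14 circadian clock genes, 3 were higher and 0 lower at that level. In every pair 4 were higher and 2 lower, against 13.9% and 11.3% of all genes. The list median was 0.05, with 0.37 in hair germ, -0.10 in bulge and 0.01 in total keratinocytes. The 3 higher ones at that level were Cry2 (0.47), Per2 (0.44) and Per3 (0.44). In set 2 the mean differences of these 3 were 0.46, 0.68 and 0.67, with signs that differed between pairs. In hair germ, bulge and total keratinocytes Cry2 differed there by 0.87, -0.16 and 0.66. Per2 differed by 1.7, 0.49 and -0.17, and Per3 by 1.88, 0.14 and -0.01. Cry1 differed by 0.35 in set 1 without reaching that level, and by -0.22 in set 2.

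Of 11 sebaceous gland genes, Pparg, the master regulator of lipid-forming cells, was higher in every pair by 0.99 (limma adjusted p 0.405). It read 5.17, 7.84 and 7.37 in Het hair germ, bulge and total keratinocytes and 6.17, 8.52 and 8.64 in cKO. The other 10 did not reach an unadjusted p under 0.05. Of 14 interferon response genes, Usp18 was higher (0.66) and Oas1a lower (-0.76) at that level, against 3.33% and 2.77% of all genes. Of 13 cholesterol synthesis genes none reached it.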
